A study of Mus musculus with 116 samples.

Results

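The comparison set 6 libraries made from pools of 10 C10 cells against 7 libraries made from 1 C10 cell each, 13 of the 116 libraries in the series. The 10-cell libraries were replicates 1, 2, 5, 6, 9 and 10, and the 1-cell libraries were replicates 2, 5, 6, 9, 10, 13 and 14. An eighth 1-cell library, replicate 1, was left out because of a measured value: it held a count for 538 genes. Both groups were untreated C10 cells in standard culture, a mouse line that the labels describe as alveolar type II lung epithelium, and the labels give no difference between them but the number of cells per library. The libraries came from nanoSPLITS, in which the lysate of a cell or of a small pool sits in a nanodroplet that is split so that RNA and protein can be measured from the same material, and the RNA was read as full-length SMART-Seq cDNA. Another 6 libraries, of 3 cells each, entered neither group and served to rank genes by abundance. No label says that the libraries came from separate cultures, so the p-values below measure the spread between these libraries only.

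A single cell holds few copies of most mRNAs, and only a part of them is turned into cDNA and sequenced. An mRNA can therefore be missing from a 1-cell library because the cell did not hold it at that moment, since many genes are transcribed in bursts or in a given phase of the cell cycle, or because it was lost on the way to the sequencer. A pool averages over its cells before the cDNA is made. In these libraries fewer cells with a transcript and less transcript per cell cannot be told apart, because each pool gives 1 value for all of its cells.

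Both groups were sequenced to a similar depth. Total counts ran from 7838544 to 15385625 in the 1-cell libraries and from 8313314 to 14778988 in the 10-cell libraries, and the log2 totals differed by 0.05 (exact permutation test, two-sided, Benjamini-Hochberg adjusted p = 0.831 over 6 library measures). Reads that were not aligned made up 21.9% to 51.0% of a 1-cell library and 14.6% to 24.9% of a 10-cell library. At the depth of these libraries, 3 counts, taken as the floor of detection, came to 0.195 to 0.383 CPM (a gene's counts scaled to a common library total) in the 1-cell group and 0.203 to 0.361 CPM in the 10-cell group. The 1-cell replicate 10 stood apart from its group with 11764 genes, against 9368 in the next library, and with 9.28% of its reads outside annotated genes. The 1-cell replicate 14 had 25.6% of its counts on mitochondrial genes and the 10-cell replicate 1 had 17.8%. Counts of called genes in the functional classes are given below without these libraries where they moved by over 1.5 times.

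The label of the line was checked against marker genes. Of 10 alveolar type II markers, 6 had no count in any of the 13 libraries, among them the surfactant genes Sftpc, Sftpb, Sftpa1 and Sftpd and the lung transcription factor Nkx2-1. The summed level of all 10 was 0.39 to 4.43 CPM in the 1-cell libraries and 1.68 to 27.5 CPM in the 10-cell libraries. The other 4 had counts in both groups, and of these Abca3, a lipid transporter of lamellar bodies, reached 26.5 CPM and the transcription factor gene Etv5 15.0 CPM in a pool. Of the 8 general epithelial markers, 3 had a count in a single cell and 6 in a pool, and they summed to 0.0735 to 427 CPM and 2.42 to 83.4 CPM. Cldn4 and Cldn7 had no count anywhere. Epcam, an epithelial adhesion protein, was at 0 in all single cells and at 73.4 CPM in the 10-cell replicate 6, where Cdh1, the adherens junction cadherin, had its highest level of 10.0 CPM. The epithelial keratin gene Krt18 was at 422 CPM in the 1-cell replicate 2 and 61.8 CPM in replicate 6, at 0 in the other five, and in the 10-cell group it had counts in replicate 5 alone. The 12 mesenchymal markers summed to 1616 to 14530 CPM in the 1-cell libraries and 4423 to 9997 CPM in the 10-cell libraries, with Vim, the intermediate filament protein vimentin, at 1442 to 3464 and 1311 to 2110 CPM. Of these 12 markers, 8 had a count in a single cell and 10 in a pool. Col1a2 and Pdgfrb had no count in any single cell, and Lum and Thy1 had none in either group. The surfactant genes that define the labelled cell type were thus absent in both groups, and the libraries are called C10 below.

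Endothelial markers summed to at most 20.4 CPM in any 1-cell library and 5.201 CPM in any 10-cell library. Blood and immune markers reached 72.3 and 54.2 CPM, with Ptprc at 0 in all 13.

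The 10-cell libraries held more genes and resembled each other more than the 1-cell libraries did. The groups also differed in the share of reads not aligned, as given above, and the part of this in the differences was not tested. A 1-cell library held 8091.9 ± 1949.5 genes with a count (SD, n = 7) and a 10-cell library 12763 ± 991 (SD, n = 6), so that pools held 4671 more (adjusted p = 0.00466 by the same exact permutation test). At an equal depth of 7838544 counts the difference was 4672 genes (exact permutation test, adjusted p = 0.00466), so it did not shrink when depth was equalised. The ranges overlapped through 1 library: the 1-cell replicate 10, at 11764 genes, lay above the lowest 10-cell library, at 11477. Without it the difference was 5283 genes. The number of genes with only 1 to 10 counts was about the same, 2678 to 3464 against 2781 to 3049. Genes at 10 CPM or more numbered 2224 to 6552 in the 1-cell libraries and 6408 to 7765 in the 10-cell libraries. The gap between the groups was thus at the higher levels and not among genes with a few counts.

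Pairs of 1-cell libraries had a mean Pearson r of 0.540 on log2(CPM + 1), and pairs of 10-cell libraries one of 0.807. Genes without a count in any of the 20 libraries of 1, 3 or 10 C10 cells were left out of r. The difference of 0.267 had a p of 0.000583, the smallest that 7 against 6 libraries allow (exact permutation test, adjusted p = 0.0035). The share of counts on the 100 most abundant genes was 30.7% and 29.6% (exact permutation test, adjusted p = 0.831), and that on mitochondrial genes was 10.7% ± 6.73 (SD, n = 7) and 9.87% ± 4.12 (SD, n = 6; exact permutation test, adjusted p = 0.831). Each 1-cell library correlated with the mean 10-cell profile at an r of 0.548 to 0.747, while a 10-cell library correlated with the mean of the other five at 0.837 to 0.907. The mean of the 7 single-cell profiles came to 0.867. These correlations run across genes, which are not independent replicates.

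Adding up single cells recovered much of what a pool showed. Any 3 of the 1-cell libraries together held a count for 12197 genes on average and any 4 for 13230, which brackets the 12763 of 1 pool of 10. Depth was not equalised here: 3 or 4 whole libraries hold more counts than 1 pool, so cell numbers cannot be equated. All 7 together held 15135 genes, against 17733 in the 6 pools, and 14212 genes were seen in both groups, 3521 only in pools and 923 only in single cells. The contrast was in repeatability. A count was present in every library for 2787 genes of the 1-cell group and 8180 genes of the 10-cell group, and a level of 10 CPM in every library for 728 and 3681 genes.

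The gain in detection depended on abundance. Genes were binned by their mean CPM in the 3-cell libraries, which belong to neither group; CPM is a share of reads and is not corrected for gene length. Of the 630 genes at 300 CPM or more, a median 1-cell library held a count for 96.8%, and every 10-cell library held one for all of them. Among the 2639 genes at 30 to 100 CPM the medians were 59.95% and 95.7%. Among the 2431 genes at 3 to 10 CPM they were 38.1% and 72.8%. In the 30 to 100 CPM bin no 1-cell library, at 41.8% to 85.9%, reached the lowest 10-cell library at 92.0%.

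A count threshold of 10 CPM, chosen after the counts were seen to fall into a low and a high mode, made the gap between medians wider from 30 CPM upward. It left the gap nearly the same at 10 to 30 CPM, where the medians for a count were 48.1% and 85.0%. Below 10 CPM the gap narrowed, to 8.84% against 27.1% at 3 to 10 CPM and 4.41% against 14.1% at 1 to 3 CPM. At 30 to 100 CPM the median share of genes at or above 10 CPM was 41.1% per 1-cell library and 84.3% per 10-cell library, and at 10 to 30 CPM it was 18.7% and 56.5%. Of the 7328 genes with a mean of 10 CPM or more in the 3-cell libraries, 728 (9.93%) were at 10 CPM or more in all 7 single cells, 805 (11.0%) in none, and the rest in 1 to 6 of them. In the 6 pools, 3641 of the same genes (49.7%) were at that level throughout. The median log2 ratio of 10-cell to 1-cell means was 0.62 at 1 to 3 CPM, 0.49 at 3 to 10, 0.35 at 10 to 30, 0.15 at 30 to 100, 0.02 at 100 to 300 and 0.08 at 300 CPM or more.

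**Figure D1:**
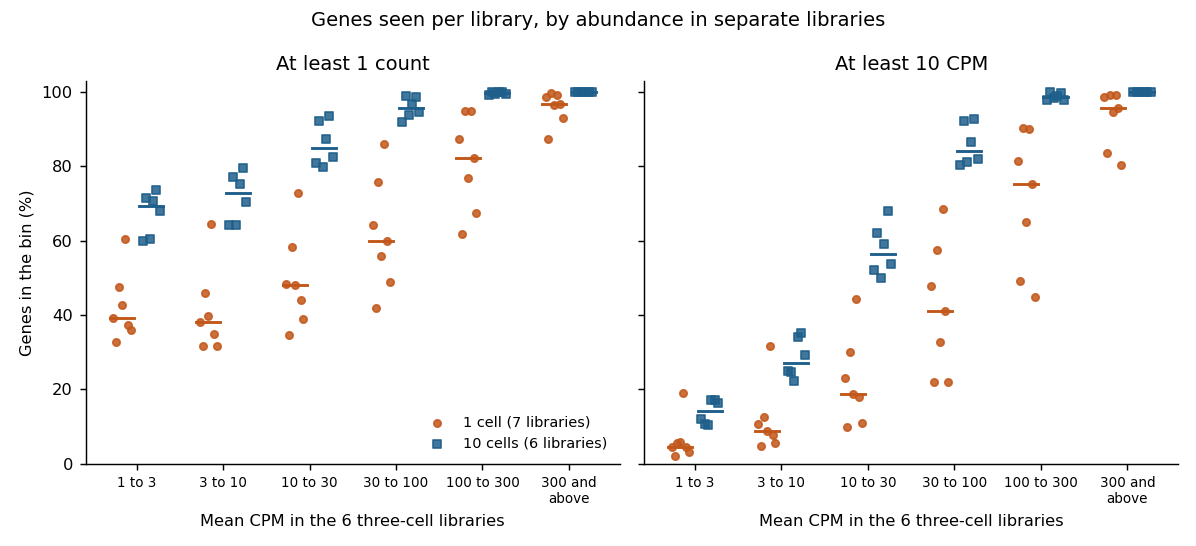
Share of genes (percent, y axis) with at least 1 count (left) or at least 10 CPM (right) in each library, by the genes' mean CPM in the 3-cell libraries (x axis). Each point is a library, circles 1 cell and squares 10 cells, and bars are group medians; the groups overlap only below 10 CPM and only through the 1-cell replicate 10, which reaches 60.4% with a count at 1 to 3 CPM, where the lowest pool is at 59.9%.

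The detection test, Fisher's exact test per gene on libraries with and without a count, called 0 of 18656 genes in either direction (0.0%). The smallest p that 7 against 6 libraries allow is 0.000583, and its adjusted value here was 0.131. At an unadjusted p under 0.05, 1784 genes were seen more often in the pools and 2 less often (Fisher's exact test, two-sided). The shift in detection was thus visible over sets of genes and whole libraries, while no single gene passed after adjustment.

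Single genes showed the pattern behind these shares. Dpm2, a subunit of the enzyme that makes dolichol phosphate mannose for glycosylation, was at 0 in 3 single cells and at 134 to 214 CPM in the other 4, and at 113 to 174 CPM in all 6 pools. Rsu1, a partner of the adhesion protein PINCH, was at 424 to 826 CPM in 4 single cells and at 0 to 0.128 CPM in the other 3, with 170 to 497 CPM in the pools. Vma21, an assembly factor of the vacuolar proton pump, was at 331 to 392 CPM in 4 single cells and at most 0.128 CPM in 3, with 125 to 293 CPM in the pools. In each of these genes the pools lay between the empty and the filled single cells or overlapped the filled ones.

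Soat1, which esterifies cholesterol, was at 326 to 440 CPM in 3 single cells and 0 in 4, and at 113 to 170 CPM in the pools. Pex2, a peroxisome assembly factor, was at no less than 267 CPM in 4 single cells and at most 0.255 CPM in 3, and at 84.7 to 169 CPM in the pools. Cr1l, a complement regulator, was at 158 to 196 CPM in 3 single cells and at most 0.128 CPM in 4, and at 50.1 to 108 CPM in the pools. For Soat1, Pex2 and Cr1l every filled single cell lay above every pool. Cr1l overlaps Cd46 in the RefSeq annotation and no strand setting is given in the sources used here, so its reads cannot be assigned with certainty. All 6 genes were the ones with the smallest p in the test of spread described next, and none had a group difference in level by edgeR's quasi-likelihood test (Benjamini-Hochberg adjusted p = 0.992 for Pex2 and 0.9998 for the others).

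Other genes, among the most abundant, were filled in every library. Eef1a1, the elongation factor that brings tRNAs to the ribosome, had a lowest, median and highest level of 2046, 3875 and 4543 CPM in single cells and 2262, 3157 and 3746 CPM in pools. Gapdh, a glycolytic enzyme, had 2086, 3426 and 4634 CPM and 2578, 3234 and 3414 CPM. Rplp0, a protein of the ribosomal stalk, had 1602, 2202 and 2700 CPM and 1461, 2084 and 3227 CPM. The 2 groups overlapped for all 3 genes. High abundance did not always go with this: of the 630 genes at 300 CPM or more in the 3-cell libraries, the lowest single cell had 80.5% at 10 CPM or more.

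**Figure D2:**
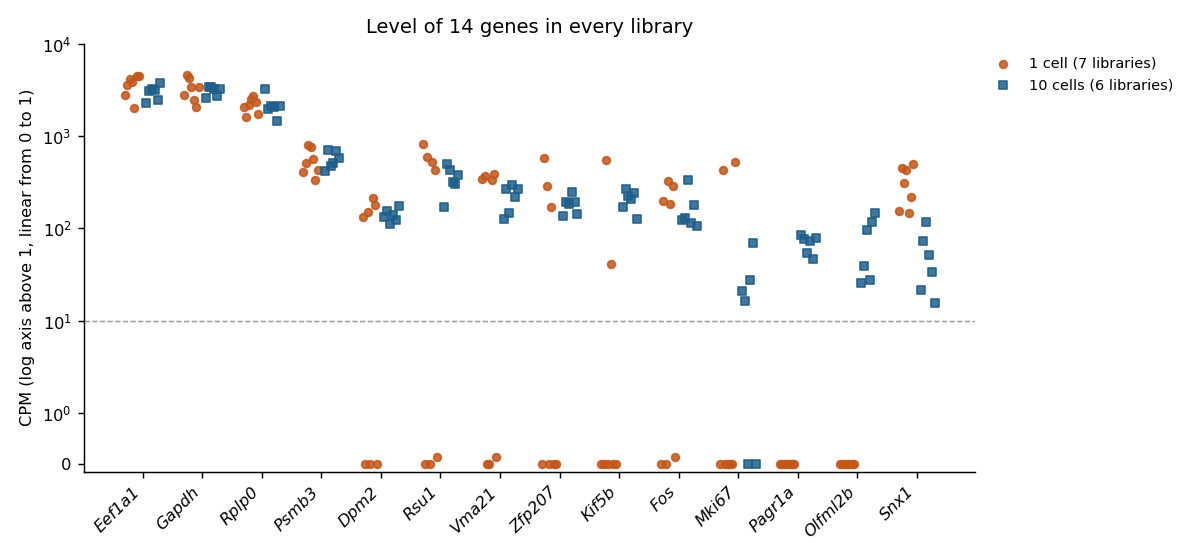
Level of 14 genes (CPM, y axis; log scale above 1, linear from 0 to 1) in each of the 7 1-cell libraries (circles) and 6 10-cell libraries (squares); the dashed line is 10 CPM. Eef1a1, Gapdh, Rplp0 and Psmb3 were filled in every library, the next genes were filled in some single cells and in all pools, Mki67 was filled in 2 single cells and 4 pools, Pagr1a and Olfml2b were at 0 in every single cell, and Snx1 was higher in every single cell than in any pool.

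The spread between libraries was much larger among single cells. Over genes with a mean of 10 CPM or more in the 3-cell libraries, the median squared coefficient of variation (CV2, the variance divided by the squared mean) of CPM was 2.34 among 1-cell libraries and 0.361 among 10-cell libraries. The median of the ratio per gene was 6.14 (quartiles 3.26 and 11.45, 7041 genes), and 96.75% of the ratios were above 1. Averaging 10 independent values would divide CV2 by 10. CV2 cannot exceed 7 with 7 libraries or 6 with 6, and the part of this limit in the ratio of sparse genes was not tested.

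The ratio changed with abundance in the same bins. It was 2.51 at 1 to 3 CPM, 4.72 at 10 to 30, 7.05 at 30 to 100, 7.48 at 100 to 300, and 5.88 at 300 CPM or more. In that last bin the median CV2 was 0.326 among single cells and 0.0553 among pools, and in the 100 to 300 CPM bin it was 1.01 and 0.124.

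**Figure D3:**
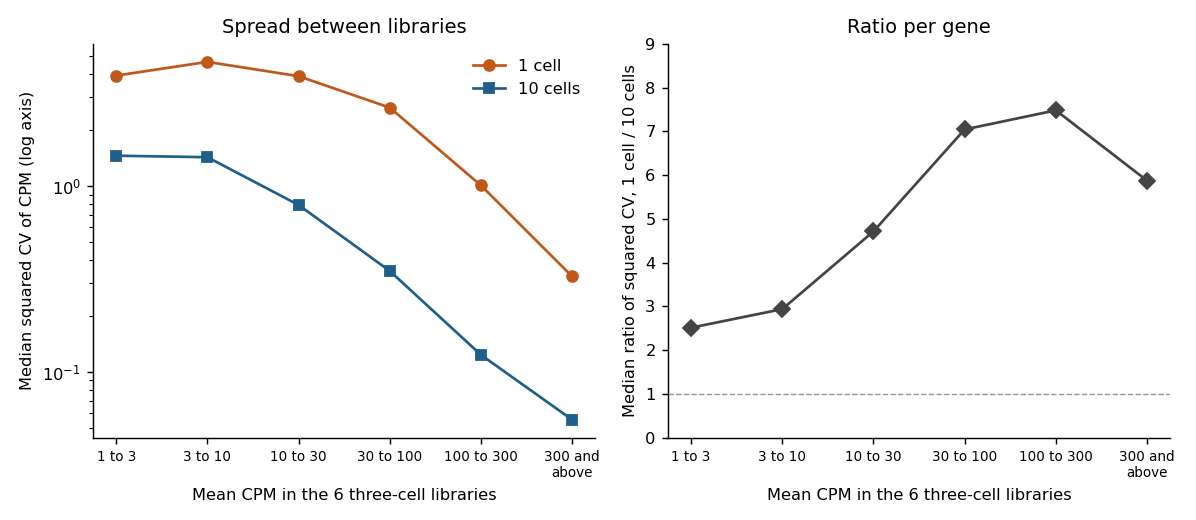
Median CV2 of CPM between libraries (left, log axis) in the 7 1-cell libraries (circles) and 6 10-cell libraries (squares), and median ratio per gene, 1 cell over 10 cells (right; dashed line at 1), by mean CPM in the 3-cell libraries (x axis). Both CV2 curves decline with abundance from 3 to 10 CPM upward and the ratio is highest, 7.48, at 100 to 300 CPM.

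A test of spread, limma on the absolute deviations of log2(CPM + 1) from the group mean, called 2606 of 7328 genes wider among single cells (35.6%) and 478 wider among pools (6.52%). This result depends on how deviations are taken: measured from the group median, 0 genes were wider among single cells and 41 among pools. Of the 2606 genes, 2503 were at 10 CPM or more in 2 to 5 of the 7 single cells and 2058 were at that level in every pool. Of all 7328 genes, 17.8%, 14.4%, 11.6% and 9.48% were at that level in 2, 3, 4 and 5 single cells, and 49.7% in every pool. These counts come from the values that the test used, so they are no separate support for the calls. Of the 478 genes wider among pools, 472 were at 10 CPM or more in no single cell. Fam199x had no count in any single cell and was at 0 in 3 pools and 27.2 to 68.1 CPM in the other 3, and Plk4, the kinase that starts centriole duplication, was at most 0.418 CPM in single cells and at 25.0 to 36.0 CPM in 3 pools. The other 4 genes of the 6 with the smallest p in this direction, 2310057M21Rik, Cybc1, Ptprm and Fdxr, were filled in 3 pools each as well.

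Among genes at 100 CPM or more in the 3-cell libraries, the extremes of the CV2 ratio were taken as a description. Pbdc1 had the largest, 444: its pools lay at 252 to 293 CPM and its single cells ran from 0 to 316 CPM. Marchf2, a membrane-bound ubiquitin ligase, had a ratio of 304, with 206 CPM in 1 single cell, 0 in the other 6, and 81.1 to 126 CPM in the pools. Tmem9b, with a ratio of 225, was at 0.12 to 853 CPM in single cells and 219 to 283 CPM in pools, and Rras2, a RAS-related GTPase with a ratio of 226, was at 0 to 617 and 141 to 214 CPM. These 4 genes were even across pools and scattered across cells.

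At the other end, Malat1, a nuclear long noncoding RNA, had a ratio of 0.255. It was at 61.2 to 1804 CPM in single cells and at 116 to 12030 CPM in pools, and the highest value came from the 10-cell replicate 9. Bzw1, a regulator of start codon choice, had a ratio of 0.399, with 454 to 825 CPM in single cells and 321 to 705 CPM in pools. Ube2f, which conjugates NEDD8, had 0.331, and Polr2c, an RNA polymerase II subunit, had 0.442. These 4 genes were filled in every library of both groups.

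Levels were then compared gene by gene. By edgeR's quasi-likelihood test, 712 of 11723 genes were higher in the 10-cell libraries (6.07%) and 2 were lower (0.0171%), or 6.09% in either direction. Of the 712, 327 had no count in any 1-cell library, 612 had at most 3 counts in each and 17 had a count in all 7. A gene absent from single cells passes the filter on low counts only through the pools, so the direction of such calls follows from the filter. Among the 2692 genes with a count in every library, 29 were higher and 2 lower (edgeR). Without the filter edgeR called 0 genes, with 4354 at an unadjusted p under 0.05, while with the 3-cell libraries in the same fit 290 were higher and 2 lower, and with DESeq2 1179 and 119. With replicate number as a block edgeR also called 0 genes, with 1977 at an unadjusted p under 0.05. The 2 groups did not overlap for 191 of the 712, and for 294 of all genes tested with the pools above. The median log2 difference over all genes tested was 0.05 with TMM scaling and 0.28 with library totals, and with library totals 799 genes were higher and 2 lower. The count rested on single libraries: it was 1970 without the 1-cell replicate 10, 161 without replicate 5 and 170 without replicate 14, and 139 of the 712 were called in all 13 fits that left out 1 library.

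Pagr1a, a cofactor of the MLL3 and MLL4 histone methyltransferases, had no count in any single cell and a lowest, median and highest level of 46.8, 74.6 and 85.2 CPM in the pools, at least 241-fold higher against a floor of 3 counts per 1-cell library. Its log2 difference was 12.49 ± 1.86 (SE; edgeR, adjusted p = 0.0206). Olfml2b, a secreted matrix protein, had no count in any single cell and 25.7, 68.1 and 148 CPM in the pools, at least 264-fold higher (edgeR, adjusted p = 0.0206). Both were called in all 13 fits with 1 library left out. Both also passed the filter on low counts only through the pools, so the direction of these calls follows from the filter.

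Chic2 was at 0 in 6 single cells and 1.15 CPM in 1, and at 26.5 to 150 CPM in the pools (edgeR log2 difference 8.84 ± 2.07 (SE), adjusted p = 0.0307). Fyttd1, an mRNA export adaptor, was at 0 in 6 single cells and 1.20 CPM in 1, and at 53.2 to 104 CPM in the pools (edgeR, adjusted p = 0.0307). Of the 13 fits that left out a library, Chic2 was called in 12 and Fyttd1 in 11. Ndufaf5, an assembly factor of respiratory complex I, was at 0 in 6 single cells, 1.65 CPM in 1 and 22.2 to 105 CPM in the pools (edgeR, adjusted p = 0.0408), and was called in 3 of the 13 fits that left out a library. Fyttd1 overlaps Rubcn in the annotation, and Ndufaf5, Rab27b and Slc6a8 overlap the predicted genes Gm52594, Gm41770 and Gm32261. The same limit on strand applies to them. Rab27b, Slc6a8 and Tmem43, the other 3 genes among the 8 most abundant of those called and present in every pool, likewise had no count in any single cell. These genes, too, passed the filter on low counts only through the pools.

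The 17 genes called higher that had a count in all 7 single cells were looked at after their values were seen. In none of them did a single cell exceed 4.84 CPM. Luc7l2, a splicing factor, ran from 0.065 to 3.60 CPM in single cells and from 34.9 to 60.6 CPM in pools. Tnpo1, a nuclear import receptor, ran from 0.325 to 1.15 and from 10.7 to 66.1 CPM, and Rnf130, a ubiquitin ligase, from 0.065 to 1.00 and from 8.06 to 63.9 CPM. For these 3 genes every pool lay above every single cell. Most of the 17 averaged under 1 CPM in single cells, among them Tnpo1 at 0.595 and Rnf130 at 0.309 CPM. Such genes reached the mean of 1 CPM that the filter asks for only through the pools, so the direction of their calls follows from the filter. Luc7l2 averaged 2.08 CPM in single cells.

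The 2 genes called lower went the other way. Snx1, a sorting nexin of the retromer, which returns cargo from endosomes, had a lowest, median and highest level of 145, 314 and 499 CPM in single cells and 15.6, 42.6 and 118 CPM in pools, and the groups did not overlap. Every pool lay below every single cell for 2 of all 11723 genes tested. The log2 difference of Snx1 was -2.999 ± 0.743 (SE; edgeR, adjusted p = 0.033). Over the 13 fits with 1 library left out its adjusted p ran from 0.0193 to 0.0612 and passed in 4. Zfp472, a zinc finger gene that the naming rule did not pick, was at 10.2 to 155 CPM in 4 single cells, at 0.255 CPM in 1 and 0 in 2, and at 0 in all pools but replicate 1, with 0.12 CPM (edgeR, adjusted p = 0.0372, passing in 4 of the 13).

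Gene classes were described by counts and medians and not tested. Of 44 classes, 11 had a detected share in every pool above that in every single cell, and 22 without the 1-cell replicate 10. Over all genes the highest single cell, at 29.3%, lay above the lowest pool, at 28.5%, while over all protein-coding genes the groups did not overlap. Class counts of called genes stand beside 6.07% for all genes, or 712 of 11723. Over all genes 1970 of 11402 were higher without the 1-cell replicate 10 and 170 of 11739 without replicate 14, and the count in most classes moved the same way. Proteasome subunits, antioxidant genes, tubulins and olfactory and vomeronasal receptors each had 0 calls in all and 1 without the 1-cell replicate 10, and the 1 call among glycolytic enzymes was lost without replicate 14 (edgeR). The median CV2 ratio was above 1 in 40 of the 41 classes that had one, and among the 36 classes with at least 5 genes it ran from 3.50 in glycolytic enzymes to 11.0 in proteasome subunits, against 6.14 over all genes. The order of classes changed with single libraries: without the 1-cell replicate 14 the ratio was 8.32 in proteasome subunits and 9.43 in snoRNA host genes, and without replicate 10 it was 3.85 in glycolytic enzymes and 3.30 in zinc finger genes. The summed level of a class varied more among single cells than among pools in 42 of 44.

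Genes of translation and energy supply had few calls, against 6.07% of all genes. The median member of the 4 classes below was at 118 to 556 CPM in the 3-cell libraries. Among the 2692 genes with a count in every library only 29 were called higher (edgeR). The classes were not compared with genes of like abundance. Of 76 cytosolic ribosomal protein genes, 97.4% to 98.7% had a count in a single cell and 98.7% in a pool, 0 of 75 were called, and the median CV2 was 0.138 among single cells and 0.031 among pools (ratio 4.19). Subunits of nuclear-encoded oxidative phosphorylation complexes were detected at no less than 89.5% in single cells and 98.7% in pools, with 0 of 76 called and a CV2 ratio of 6.48. Their summed level differed between pools by a CV of 3.95% and between single cells by 17.8%. Translation factors were detected at 67.8% to 86.4% in single cells and 86.4% to 91.5% in pools, with 0 of 53 called and a ratio of 6.61. Mitochondrial ribosomal proteins were detected at 52.6% to 96.2% in single cells and 96.2% to 98.7% in pools, with 1 of 77 called higher and a ratio of 8.99.

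Proteasome subunits, which form the particle that degrades ubiquitin-tagged proteins, had a class ratio of 11.0, with 66.7% to 92.9% detected in single cells and 90.5% to 95.2% in pools and 0 of 39 called. Psmb3 was at 335 to 797 CPM in single cells and 420 to 699 CPM in pools. Psmb1 was at 0.637 to 988 CPM in single cells and 546 to 744 CPM in pools. The class thus held both even and uneven members. Glycolytic enzymes had a ratio of 3.50 and 1 of 14 called higher (7.14%).

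Among protein-folding genes, all 18 endoplasmic reticulum chaperones had a count in every pool, while single cells held 33.3% to 94.4% of them. None was called, and their CV2 ratio was 8.41. Cytosolic heat shock proteins were detected at 60.0% to 80.0% and 80.0% to 93.3%, with 0 of 13 called and a ratio of 4.16. Antioxidant genes of the NRF2 programme had a ratio of 8.50 and 0 of 17 called.

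Cholesterol synthesis was uneven between single cells. A single cell held a count for 15.0% to 70.0% of its 20 genes and a pool for 80.0% to 95.0%, and 3 of 19 were called higher (15.8%, against 6.07% of all genes), or 5 without the 1-cell replicate 10 and 2 without replicate 14. The summed level ran from 30.4 to 1371 CPM among single cells, a 45.1-fold range, and from 723 to 1510 CPM among pools, a 2.09-fold range. The lowest value was that of the 1-cell replicate 14, and without it the single cells ran from 140.01 to 1371 CPM. Sqle, the squalene epoxidase, was at 730 CPM in the 1-cell replicate 2, 58.9 CPM in replicate 10, 11.6 CPM in replicate 6 and at most 0.128 CPM in the other 4, and at 66.1 to 177 CPM in the pools. Msmo1, a sterol demethylating oxidase, was at 0 to 111 CPM in single cells and 56.5 to 389 CPM in pools. The 2 lowest single cells for the pathway were replicates 9 and 14.

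The cell cycle lists scattered among single cells. S phase genes summed to 920 to 6366 CPM in single cells and 1627 to 3657 CPM in pools, with 1 of 43 called higher (2.33%, against 6.07% of all genes). Without the 1-cell replicate 10 the highest single cell was at 3556 CPM, 14 of the 43 were called and the detected shares no longer overlapped, and without replicate 14 none was called (edgeR). G2/M genes summed to 979 to 10103 CPM and 1953 to 7967 CPM, with 2 of 53 called higher, or 8 without the 1-cell replicate 10. Mki67, a marker of dividing cells, was at 426 CPM in the 1-cell replicate 5 and 528 CPM in replicate 14, at 0 in the other 5, and at 0 to 69.6 CPM in pools. Top2a, the mitotic topoisomerase, was at 352 CPM in replicate 10 and at most 4.84 CPM in the other 6 single cells, against 29.4 to 213 CPM in the pools. Ccnb1, the mitotic cyclin B1, was at 160 to 343 CPM in 3 single cells and 0 in 4, and at 20.7 to 270 CPM in the pools. The 3 markers were not filled in the same single cells: at 10 CPM or more, replicate 10 had Top2a and Ccnb1 but not Mki67, and replicate 14 had Mki67 alone.

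Replication-dependent histones, whose mRNAs mostly lack a poly(A) tail, were among the 11 classes with a larger detected share in every pool. Single cells held a count for 19.0% to 48.3% of the 58 genes and pools for 70.7% to 86.2%. The summed level was 241 to 523 CPM in single cells and 545 to 1030 CPM in pools, so that the groups did not overlap. Of 40 tested genes, 10 were called higher (25.0%), against 6.07% of all genes. Each of these 10 averaged at most 0.0371 CPM in single cells and passed the filter on low counts only through the pools. The direction of these calls thus follows from the filter, and the share was not compared with genes of like abundance. Leaving out the 1-cell replicate 14 left 1 call among the histone genes, and leaving out any of the other 3 libraries that stood apart, the 1-cell replicate 10 and the 10-cell replicates 1 and 9, left 6 to 11.

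The called histone genes were low even in the pools. H3c6 had no count in any single cell and 0 to 47.0 CPM in pools, H3c13 had none and 0 to 25.5 CPM, and H4c6 was at most 0.065 CPM in single cells and 0.518 to 29.1 CPM in pools. The 2 most abundant members were not called: H2bc4 was at 165 to 244 CPM in 3 single cells and at most 1.92 CPM in 4, with 71.8 to 288 CPM in the pools, and H2ac18 was at 0 to 81.4 and 38.1 to 108 CPM. Histone genes are near-identical copies, so reads can be split or lost among them in counting, and values of single members are uncertain.

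**Figure D4:**
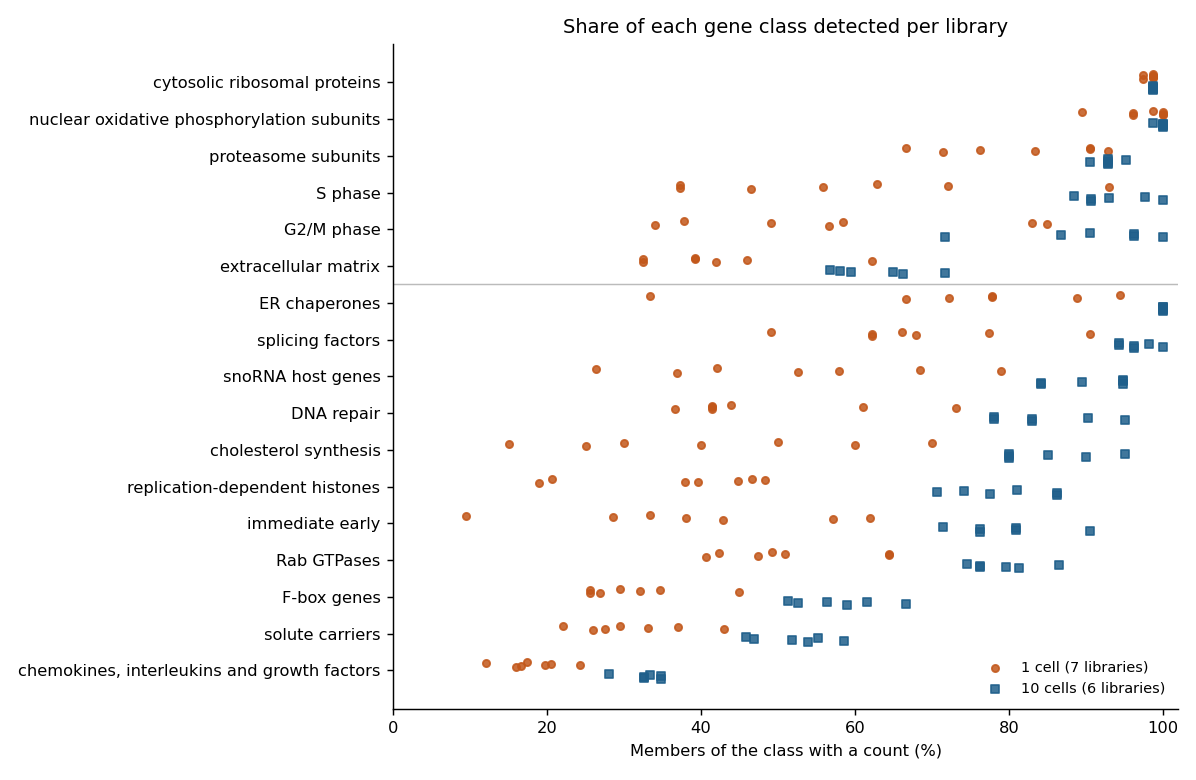
Share of each class's members with a count (percent, x axis) in each of the 7 1-cell libraries (circles) and 6 10-cell libraries (squares). Below the line are the 11 classes in which every pool lay above every single cell, from endoplasmic reticulum chaperones, complete in every pool, to chemokines, interleukins and growth factors; above it are 6 classes that overlapped.

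Among inducible genes, immediate early genes were detected at 9.52% to 61.9% in single cells and 71.4% to 90.5% in pools, and 1 of 17, Egr1, was called higher (5.88%, against 6.07% of all genes), or 2 without the 1-cell replicate 10 and 0 without replicate 14. Egr1, a transcription factor induced by growth factors, had no count in any single cell and was at 43.5 to 55.8 CPM in 4 pools, 0.203 CPM in 1 and 0 in 1 (edgeR log2 difference 11.41 ± 2.51 (SE), adjusted p = 0.0342). It passed the filter on low counts only through the pools, so the direction of this call follows from the filter. Fos, which forms the AP-1 factor with Jun, was at 181 to 324 CPM in 4 single cells and at most 0.128 CPM in 3, with 105 to 338 CPM in the pools. Jun itself was at 31.9 and 37.2 CPM in 2 single cells and 0 in 5, with 0 to 79.4 CPM in the pools. Myc, a growth regulator, was at 280 CPM in 1 single cell and at most 9.29 CPM in 6, with 27.9 to 208 CPM in the pools. Among these 4 genes only Egr1 was missing from every single cell.

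Targets of p53 were dominated by 1 cell. Their summed level was 9636 CPM in the 1-cell replicate 10 and at most 3223 CPM in the other single cells, against 1110 to 2311 CPM in the pools, with 1 of 17 genes called higher, or 0 without the 1-cell replicate 14. Ccng1, a cyclin of the p53 response, was at 4075 CPM in that library and at 266 to 1464 CPM in the other 6, with 206 to 643 CPM in the pools (edgeR log2 difference -1.75 ± 0.54 (SE), adjusted p = 0.0627). Cdkn1a, the cell cycle inhibitor p21, was at 1472 CPM there and at 0 to 349 CPM in the other 6, with 94.7 to 332 CPM in the pools. The CV of the summed level was 102.3% among single cells, 46.2% without replicate 10, and 24.0% among pools. Interferon-stimulated genes summed to 21.7 to 826 CPM in single cells and 382 to 649 CPM in pools, with 1 of 15 called higher, or 3 of 14 without the 1-cell replicate 10 and 0 without either the 1-cell replicate 14 or the 10-cell replicate 9.

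Extracellular matrix and adhesion genes were uneven in the same way. Matrix genes summed to 21852 CPM in the 1-cell replicate 14, to 2166 to 8949 CPM in the other 6 single cells and to 5194 to 8860 CPM in pools, with 1 of 39 called higher (2.56%, against 6.07% of all genes), or 5 of 37 without the 1-cell replicate 10 and 2 of 39 without replicate 14. Col1a1, the chain of type I collagen, was at 2713 CPM in replicate 14 and at 12.2 to 177 CPM in the other 6, with 91.4 to 192 CPM in pools. Fn1, fibronectin, was at 5747 CPM there and at 76.1 to 841 CPM in the other 6, with 393 to 1940 CPM in pools. Without replicate 14 the CV of the summed matrix level went from 89.4% to 43.5%, against 20.7% among pools. The same library held the mitochondrial share of 25.6%, and the part of that share in these values was not tested. Sparc, a collagen-binding protein, was filled throughout, at 578 to 5327 and 2203 to 3170 CPM.

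Of 11 integrins tested, 2 were called higher (18.2%, against 6.07% of all genes), or 4 of 10 without the 1-cell replicate 10 and 0 without either the 1-cell replicate 14 or the 10-cell replicate 9. Of 18 S100 proteins and annexins none was called, or 1 without the 1-cell replicate 10, and their CV2 ratio was 5.13. Actin and contractile genes had 0 of 23 called and a ratio of 4.93, and tubulins 0 of 13 and 6.69. Chemokines, interleukins and growth factors were detected at 12.1% to 24.2% in single cells and 28.0% to 34.8% in pools, with 6 of 40 called higher (15.0%). Without the 1-cell replicate 14 that count was 0, without replicate 10 it was 9, and without the 10-cell replicate 1 it was 3 of 37. Ccl2, a monocyte attractant, was at 110 to 354 CPM in 5 single cells and 1110 and 1674 CPM in 2, against 868 to 2673 CPM in pools (edgeR, adjusted p = 0.407). Cxcl12, a stromal chemokine, was at 436 to 2593 and 885 to 2332 CPM. Both chemokines were filled in all 13 libraries.

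Genes of RNA synthesis and processing were detected in a wide range of shares. Splicing factors were at 49.1% to 90.6% in single cells and at no less than 94.3% in pools, with 4 of 53 called higher (7.55%, against 6.07% of all genes) and a ratio of 6.68. Without the 1-cell replicates 10 and 14 in turn, 7 and 2 were called. RNA polymerase II and Mediator subunits had 1 of 40 called higher and a ratio of 7.09, with 4 of 39 and 0 called in those fits, and 0 without the 10-cell replicate 1. Host genes of small nucleolar RNAs had 26.3% to 78.9% and 84.2% to 94.7% detected, 1 of 18 called higher, or 4 without the 1-cell replicate 10, and a ratio of 9.01. Gas5, one of these hosts, was at 0 to 843 CPM in single cells, highest in replicate 10, and at 184 to 398 CPM in pools. For splicing factors and snoRNA hosts every pool lay above every single cell, while for the polymerase genes the highest single cell and the lowest pool were equal at 86.0%.

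Nuclear long noncoding RNAs were an exception in the spread of their summed level. Their summed level had a CV of 76.2% among single cells and 174% among pools, and without the 10-cell replicate 9, the library with 12030 CPM of Malat1, the latter was 111%. Neat1, the scaffold of paraspeckles, was at 0 to 59.1 CPM in single cells and 18.5 to 383 CPM in pools. Gene by gene, the median CV2 ratio of the class was 1.75 over 3 genes, and 2.97 without the 10-cell replicate 9. None of the 5 genes tested for level was called.

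Mitochondrial transcripts depended on 2 libraries. The 13 mRNAs of the mitochondrial genome were detected in all libraries and 0 were called, with a median CV2 ratio of 8.40. Without the 1-cell replicate 14, in which they summed to 188200 CPM against 44350 to 67580 CPM in the other single cells, the ratio was 0.704, below 1. The 2 mitochondrial rRNAs had a ratio of 0.639, and without the 10-cell replicate 1, where mt-Rnr2 was at 83940 CPM, it was 2.84. Both directions therefore turned on 1 library each.

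**Figure D5:**
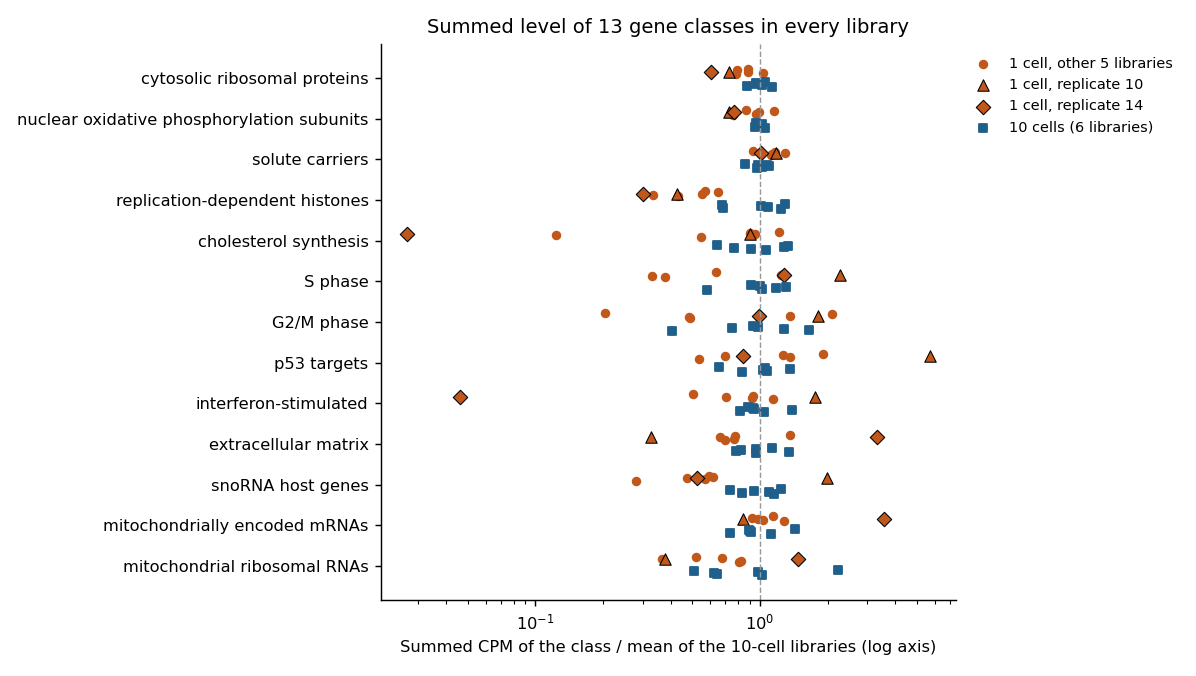
Summed CPM of 13 gene classes in each library, divided by the mean of the 10-cell libraries (x axis, log scale; dashed line at 1). Squares are the 6 pools, circles 5 of the single cells, triangles the 1-cell replicate 10, highest for p53 targets and S phase genes, and diamonds the 1-cell replicate 14, highest for extracellular matrix and mitochondrial mRNAs and lowest for cholesterol synthesis and interferon-stimulated genes.

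Among regulators and trafficking genes, every pool again held a larger share of 4 classes than any single cell, and the calls were near the 6.07% of all genes. Rab GTPases, which direct vesicles, were detected at 40.7% to 64.4% and 74.6% to 86.4%, with 4 of 46 called higher (8.70%), or 5 without the 1-cell replicate 10 and 2 without replicate 14. Solute carriers were at 22.0% to 43.0% and 45.9% to 58.5%, with 10 of 177 called higher (5.65%), or 31 and 4 in those fits. F-box genes, the substrate receptors of a ubiquitin ligase, were at 25.6% to 44.9% and 51.3% to 66.7%, with 4 of 46 called higher (8.70%), or 12 and 2. DNA repair genes were at 36.6% to 73.2% and 78.0% to 95.1%, with 3 of 39 called higher (7.69%), or 7 and 1, and 2 without either of the 10-cell replicates 1 and 9. These shares and counts were not compared with other genes of like abundance. Xrcc6, the Ku70 subunit of end joining, was at 18.6 CPM in 1 single cell and at most 0.147 CPM in 6, and at 7.82 to 130 CPM in the pools (edgeR, adjusted p = 0.331).

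Kinesins had 2 of 26 called higher (7.69%, against 6.07% of all genes), or 7 of 25 without the 1-cell replicate 10, 1 of 27 without replicate 14 and 1 of 25 without the 10-cell replicate 9. Kinases of the MAP kinase cascade had 3 of 31 (9.68%), or 9 and 1 without the 1-cell replicates 10 and 14. Regulators of chromatin and histone methylation had 2 of 30 (6.67%), or 7 and 0 in those fits and 1 without the 10-cell replicate 9. Kif5b, a transport kinesin, was at 546 and 40.7 CPM in 2 single cells and 0 in 5, and at 126 to 265 CPM in the pools. C2H2 zinc finger genes were detected at 23.0% to 56.5% in single cells and 51.7% to 71.3% in pools, with 24 of 275 called higher (8.73%) and 1 lower. The higher calls were 75 of 265 without the 1-cell replicate 10, 1 of 273 without replicate 14 and 11 of 252 without the 10-cell replicate 9. Zfp207, which supports the mitotic spindle, was at 172 to 575 CPM in 3 single cells and 0 in 4, and at 136 to 248 CPM in the pools.

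Predicted genes with a Gm symbol had 25 of 702 called higher (3.56%, against 6.07% of all genes) and a CV2 ratio of 4.08. Their calls were 132 of 635 without the 1-cell replicate 10, 1 of 720 without replicate 14 and 16 of 674 without the 10-cell replicate 9. RIKEN clones had 19 of 407 called higher (4.67%) and a ratio of 5.92, with 81 of 365 and 6 of 406 called without the 1-cell replicates 10 and 14. Protein-coding genes as a whole had 667 of 10624 called higher and a ratio of 6.21, long noncoding RNA genes 44 of 934 and 4.28, and pseudogenes 0 of 30 and 4.31. Olfactory and vomeronasal receptors, which lung cells are not known to need, had a count for 0.412% to 1.58% of 1458 genes in single cells and 0.617% to 1.71% in pools, with 0 of 7 called. That list was meant to hold silent genes, but 2 of them had a mean of 10 CPM or more in the 3-cell libraries. Its summed level reached 233 CPM in a single cell, so it is not a clean measure of background detection. The median detected share of the list was 0.617% in single cells and 1.27% in pools, and the ranges overlapped. Without the 1-cell replicate 10 the highest single cell was at 0.754%, and the ranges still overlapped.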

How the data were processed

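Read counts per gene symbol, 1 file per library and deposited by the authors as whole numbers, were used as they stand (40202 symbols and 5 closing counters, which stayed out of totals and tests). The submitters' processing notes name FastQC, STAR and HTSeq; versions, genome build and strand setting are not given in the sources used here. No molecular identifiers are described, so counts are not independent molecules, and intervals and floors cover counting error only. RefSeq tables gave mitochondrial genes and overlaps by name (38730 symbols matched), and transcript lengths (25260 matched) came from GENCODE M21.

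From the counts, CPM, genes detected, CV2 and correlations were computed. Levels were tested with edgeR 4.0.16 in R 4.3.3 (TMM; a count in at least 3 libraries and a mean of at least 1 CPM), detection by Fisher's exact test and spread with limma 3.58.1, all with Benjamini-Hochberg adjustment and a threshold of 0.05. DESeq2 1.42.0 and limma were alternatives for levels. The tests of level, detection and spread were also run on simulated data. For spread these were normally distributed log values, unlike the empty and filled single cells seen here. That run therefore cannot decide between deviations from the group mean and from the group median. The closest pair of libraries differed by a chi-square of 138.3 per degree of freedom, so none was counted as a duplicate.

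The libraries and the 42 gene lists were chosen with earlier results of these data known. Genes were named by rule: the 8 most abundant called by edgeR in each direction with a count in every library of the higher group, the 6 with the smallest p in each direction for spread, the 4 largest and smallest CV2 ratios, the 2 most abundant of each class, and a list of 23 cell biology genes. The same rule for detection picked none, as no gene was called. The direction of Rab27b, Slc6a8 and Tmem43 was known from those earlier results.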

Additional observations from a re-analysis of the deposited data

Results flagged for a closer look

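Among 96 groups of library values, 10 held a library set off from the others of its group by a gap that is large for the group's range. Chance alone sets off about 1 in 20 groups, or 4.8 here.

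The mitochondrial share was 25.6% in the 1-cell replicate 14, against 6.17% to 10.46% in the other 6 single cells, and 17.75% in the 10-cell replicate 1, against 6.83% to 10.6% in the other 5 pools. Mitochondrial mRNAs summed to 188200 CPM in the 1-cell replicate 14 and to 44350 to 67580 CPM in the other 6. In the same library interferon-stimulated genes summed to 21.69 CPM, against 235.7 to 826 CPM, and RNA polymerase II and Mediator subunits to 2069 CPM, against 3262 to 4295 CPM.

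The 1-cell replicate 10 was set off for 3 classes. Host genes of small nucleolar RNAs summed to 2586 CPM there, against 366.8 to 807.9 CPM, and predicted Gm genes to 21020 CPM, against 4282 to 7228 CPM. Actin and contractile genes summed to 11950 CPM, against 24210 to 38500 CPM.

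Splicing factors summed to 4565 CPM in the 1-cell replicate 2, against 6667 to 7532 CPM in the other 6. Immediate early genes summed to 812.1 CPM in the 10-cell replicate 10, against 1350 to 1674 CPM in the other 5 pools. What sets these libraries off was not tested.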

How the results depend on the processing

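The number of genes called for level, 714, was 1298 with DESeq2, 0 without the filter on low counts (edgeR; 4354 at an unadjusted p under 0.05), 31 among genes with a count in every library, 1215 with the 1-cell replicate 1, 292 with the 3-cell libraries in the same fit, and 163 to 1979 with 1 library left out (163 without the 1-cell replicate 5, 171 without 14, 385 without 9, 443 without 13, 1979 without 10, and 431 without the 10-cell replicate 9). Spread calls, 3084 in all, were 885 at 100 CPM or more, 379 among genes with a count in every library and 41 with deviations from the group median. The median CV2 ratio of 6.14 was 7.05 at 100 CPM or more, 5.07 with a count in every library, 7.79 with the 1-cell replicate 1, 4.90 as a ratio of variances of log2(CPM + 1), and 5.23 to 6.83 with 1 library left out. Detection gave 0 calls under every alternative run (Fisher's exact test, with 607 to 2620 genes at an unadjusted p under 0.05). With 1 library left out, the log2 difference in total counts ran from -0.0284 to 0.138, that in the top 100 share from -2.58 to 1.06 percentage points and that in the mitochondrial share from -2.38 to 1.69. Same-numbered libraries correlated in their deviations at r from -0.028 to 0.0339, and none correlated best with its own number. The labels do not say whether shared numbers mark a pairing, and these correlations cannot exclude one. With replicate as a block over 5 shared numbers, edgeR called 0 genes (1977 at an unadjusted p under 0.05) and the spread test 2257; genes detected differed by 4445 and 4412 at equal depth (exact sign-flip test, adjusted p = 0.156, where the smallest raw p is 0.0625), the top 100 share by 0.181 and the mitochondrial share by 0.566. The causes were not tested. Equalising depth left the difference in genes detected at 4672.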

Other observations

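Transcript length went with the share of genes filled in single cells. In the 30 to 100 CPM bin, split into 3 equal parts by transcript length, a median 1-cell library had 49.2% of the short genes, 37.5% of the middle and 35.5% of the long at 10 CPM or more, and a median pool had 89.3%, 82.4% and 81.4%. For a single count the order differed, with 60.1%, 55.5% and 63.6% in single cells. Counts above 0 but under 10 CPM were found for 12.9% of the short and 27.2% of the long genes per 1-cell library. At 100 to 300 CPM the median shares at 10 CPM or more were 83.5%, 72.2% and 69.6% in single cells. CPM is not corrected for length, so a long gene in a bin stands for fewer molecules than a short one.

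Genes without a count in the 3-cell libraries were nearly silent in both groups as well. A single cell held a count for 0.538% to 3.63% of these 24353 symbols and a pool for 2.23% to 4.47%.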
